A study of Mus musculus with 2 samples.

Results

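The proteasome genes described here are the 49 mouse genes whose symbol begins with Psm, a letter from a to g and a number, pseudogenes left out, among 22180 genes measured by array features that carry 1 gene symbol. For each gene the feature with the highest mean signal on the arrays was taken. The 49 genes included 15 of the 20S core, 3 of the immunoproteasome, 4 activators, 1 inhibitor, 20 of the regulatory particle and 4 assembly chaperones. The remaining 2, Psmc3ip and Psme3ip1, match the symbol pattern but are named for binding a proteasome protein and are no subunit genes, so they were kept in the total and in no role group. Psma4 is not among the members, because both of its features also carry another symbol.

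The cells were alveolar macrophages, which live in the air spaces of the lung and clear surfactant and inhaled particles. They had been isolated by flow cytometry from mice of 8 to 10 weeks, and their RNA was hybridised to Affymetrix arrays. The series holds 2 arrays, 1 from Lysm-Cre Ssu72fl/fl mice and 1 from Lysm-Cre control mice. Both groups carry Lysm-Cre, a Cre recombinase driven by the lysozyme 2 gene and so active across myeloid cells, and the Ssu72fl/fl mice have in addition floxed Ssu72 alleles that Cre can excise. Ssu72 acts on RNA polymerase II as a phosphatase of its tail. The number of mice behind each array is not stated in the labels.

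The proteasome is the protease of the cytosol and nucleus that degrades proteins tagged with ubiquitin. Its core is a barrel of alpha and beta rings with the proteolytic sites inside. A regulatory particle at the end of the barrel binds, unfolds and threads in ubiquitin-tagged substrates. In immune cells and under interferon-gamma, inducible catalytic subunits replace the constitutive ones, and the activator made of Psme1 and Psme2 can cap the barrel. Both are known for their part in making peptides for MHC class I molecules.

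Values are the authors' log2 expression values, and each difference is the Ssu72fl/fl array minus the Lysm-Cre array. Each genotype has 1 array, so that no test between genotypes could be made and no error between animals can be given. The small number of arrays limits how precise any value can be. A floor was set at the median of all values, 4.65. A gene was compared where at least 1 array lay above it, and a value under it was set to it, which makes that difference a lower bound of its size. The spread given beside a gene is a robust SD, from the median absolute deviation, of the differences of the 650 or 651 genes that share its bin of signal among 20 bins. It describes scatter between genes, not between animals. Near the floor the spread is narrowed by the values set to it, so that a small difference can exceed it there. Because bright features were on the whole lower on the Ssu72fl/fl array, a level-adjusted difference is also given where it matters, from which a smooth curve of difference on signal has been subtracted. Differences were counted at 1.5-fold, which is 0.58 on the log2 scale.

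The feature for Ssu72 itself read 4.998 on the Ssu72fl/fl array and 4.862 on the Lysm-Cre array, a difference of 0.14 with a spread of 0.14. Where its probes lie with respect to the floxed segment is not stated, so this feature checks nothing, and all directions below rest on the labels. All 13 measured of 14 alveolar macrophage markers were above the floor, with a mean level of 6.99 on the Ssu72fl/fl array and 7.27 on the Lysm-Cre array. On the deposited scale 12 of the 13 were lower (median -0.30), and 6 of 13 when level-adjusted (median 0.13). Of all compared genes 51.9% were lower, and 46.1% when level-adjusted. Among those with a mean level from 6 to 7, 71.0% were lower as deposited. Markers of other cells were present too, and many were lower on the Ssu72fl/fl array, as most proteasome genes were. Interstitial macrophage markers were lower in 4 of 5 (median -0.39, level-adjusted -0.29), with a mean level of 5.41 on the Ssu72fl/fl array and 5.72 on the Lysm-Cre array. Monocyte markers were lower in 3 of 4 (median -0.20, level-adjusted -0.19), with a mean of 4.77 on the Ssu72fl/fl array and 4.98 on the Lysm-Cre array. Neutrophil markers were lower in 5 of 5 compared, each by less than 1 spread (median -0.056), with a mean of 4.78 on the Ssu72fl/fl array and 4.83 on the Lysm-Cre array, and Ly6g was under the floor on both. Alveolar type 2 markers were lower in 5 of 6 (median -0.25, level-adjusted -0.075). The alveolar type 2 cell gene Sftpc read 8.35 on the Ssu72fl/fl array and 8.71 on the Lysm-Cre array. The part of these cells in the differences of the proteasome genes was not tested.

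No compared proteasome gene differed by 1.5-fold between the arrays on the deposited scale, and most of those compared were slightly lower on the Ssu72fl/fl array. Of the 49 genes, 41 passed the floor on at least 1 array, 3 of them as bounds, and 8 lay under it on both. Of the 41, 29 were lower and 12 higher, so that 70.7% were lower, against 51.9% of all 13015 compared genes. Their median difference was -0.086, against -0.0068 for all compared genes. At 1.5-fold 0 were lower and 0 higher, where 1.37% of all compared genes were lower and 0.315% higher. In bulk RNA of sorted cells, fewer cells of a type and less RNA per cell cannot be told apart.

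The members were not shifted evenly. The highest differences were 0.51 for Psme2, 0.48 for Psmb3, 0.39 for Psmb1, 0.37 for Psmd9 and 0.27 for Psmd1, and the lowest were -0.54 for Psma3, -0.41 for Psmb7 and -0.30 for Psma7. These are the 5 higher and 3 lower genes that differed by at least 1.2-fold, a threshold passed by 3.73% of all compared genes on the higher side and 9.0% on the lower side. Measured against the spread, and counted from 0, 7 of the 41 were higher and 11 lower by more than 1 spread. The same holds for 14.0% and 18.1% of all compared genes. The spread itself is taken around the median of a bin, which lies below 0 among bright genes. Counting from 0 there makes lower calls easier and higher calls harder. Psma7 is counted as lower, yet 25.8% of the genes in its bin had a lower difference. Psma2, near the floor, is counted as lower on a bound of -0.079 against a spread of 0.077.

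**Figure D1:**
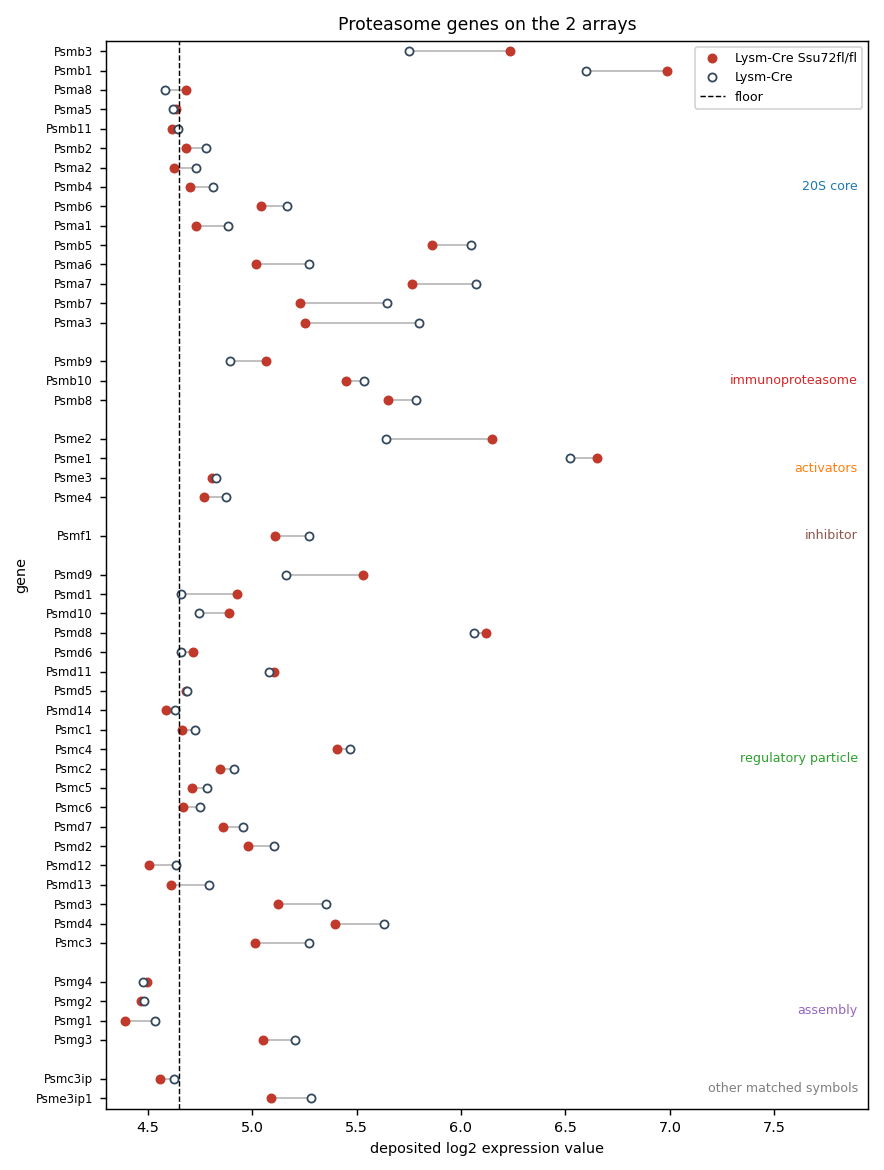
Deposited log2 expression values (horizontal axis) of the 49 proteasome genes (vertical axis, by role), with filled points for the Lysm-Cre Ssu72fl/fl array and open points for the Lysm-Cre array, and a dashed line at the floor of 4.65. Most lines run to lower values on the Ssu72fl/fl array, while Psmb3, Psmb1, Psme2, Psmd9 and Psmd1 run the other way, and signals of different genes are not comparable with each other.

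Signal level bears on this picture. Among members with a mean level between the floor and 5, 13 of 18 were lower with a median of -0.068, while 46.5% of the 7695 compared genes there were lower with a median of 0.0080. From 5 to 5.5, 11 of 13 members were lower (median -0.15), against 53.8% of 3420 genes (median -0.016). From 5.5 to 6 it was 5 of 7 members (median -0.19), against 65.4% of 1044 genes (median -0.094). From 6 to 7, all 3 members, Psmb1, Psme1 and Psmd8, were higher, in a range where 71.0% of 590 compared genes were lower with a median of -0.19. After the level adjustment 29 of 41 members were again lower (median -0.068), against 46.1% of all compared genes. On that scale 3 members were at least 1.5-fold higher, Psmb1 (0.77), Psme2 (0.66) and Psmb3 (0.65), and 0 were lower, where 0.73% of all compared genes were higher and 0.3% lower.

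**Figure D2:**
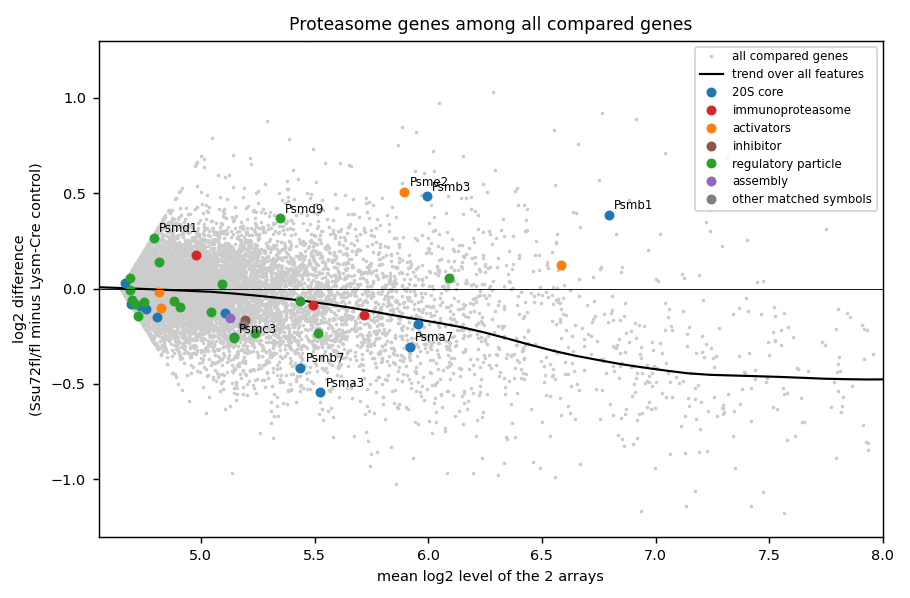
The log2 difference of Ssu72fl/fl minus Lysm-Cre control (vertical axis) against the mean log2 level of the 2 arrays (horizontal axis, shown up to 8), for all compared genes (grey) and proteasome genes (coloured by role), with the curve subtracted in the level adjustment in black. Psme2, Psmb3 and Psmb1 lie far above the curve, Psma3 and Psmb7 below it, and most other members lie a little under 0.

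Alpha subunits build the outer rings of the core and form the gate of the barrel. The 7 alpha genes among the members lack Psma4 and include a testis counterpart. Of the 6 compared, 5 were lower, with a median of -0.20, against 51.9% of all compared genes. Psma3 read 5.25 on the Ssu72fl/fl array and 5.80 on the Lysm-Cre array, a difference of -0.54 (0.69-fold), which was more than its spread of 0.23. Only 2.15% of the 651 genes in its bin of signal had a lower difference. When level-adjusted it was -0.47. Psma7 was at 5.77 on the Ssu72fl/fl array and 6.07 on the Lysm-Cre array (-0.30, spread 0.26), and this became -0.15 when level-adjusted. Psma6 was at 5.02 and Psma1 at 4.73 on the Ssu72fl/fl array, against 5.27 and 4.88 on the Lysm-Cre array, differences of -0.25 and -0.15 with spreads of 0.19 and 0.12. For Psma2 the Ssu72fl/fl value of 4.63 lay under the floor, so its difference of -0.079 is a bound. Psma5 was under the floor on both arrays, at 4.64 on the Ssu72fl/fl array and 4.62 on the Lysm-Cre array. The one alpha gene that was higher was Psma8, the testis counterpart of Psma7, at 4.68 on the Ssu72fl/fl array and, under the floor, 4.58 on the Lysm-Cre array.

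The beta subunit genes of the inner rings moved apart. Psmb3 and Psmb1 encode beta subunits with no proteolytic site. Psmb3 read 6.24 on the Ssu72fl/fl array and 5.75 on the Lysm-Cre array, a difference of 0.48 (1.40-fold, spread 0.26). This was higher than that of 97.7% of the genes in its bin. Psmb1 read 6.987 on the Ssu72fl/fl array and 6.599 on the Lysm-Cre array, a difference of 0.39 (1.31-fold, spread 0.33). The other two subunits of this kind went the other way by less than 1 spread, Psmb2 by -0.093 (4.68 on the Ssu72fl/fl array, 4.78 on the Lysm-Cre array) and Psmb4 by -0.11 (4.70 and 4.81 in the same order). The core genes ran from -0.54 to 0.48. Of the 13 compared, 10 were lower with a median of -0.13, against 51.9% of all compared genes.

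The 3 catalytic beta subunits of the constitutive core were all lower. Psmb7, the trypsin-like subunit, read 5.23 on the Ssu72fl/fl array and 5.64 on the Lysm-Cre array, a difference of -0.41 (0.75-fold) with a spread of 0.20. Psmb5, the chymotrypsin-like subunit, read 5.86 on the Ssu72fl/fl array and 6.05 on the Lysm-Cre array (-0.19, spread 0.26). Level adjustment brought Psmb5 to -0.025. The caspase-like subunit Psmb6 read 5.04 on the Ssu72fl/fl array and 5.17 on the Lysm-Cre array (-0.13, spread 0.16). Only Psmb7 exceeded its spread. RefSeq names pseudogenes for Psma5, Psmb5, Psmb6 and Psmb7, and whether the features of these genes also bind such copies was not tested. Psmb11, the thymus counterpart of Psmb5, was under the floor on both arrays.

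**Figure D3:**
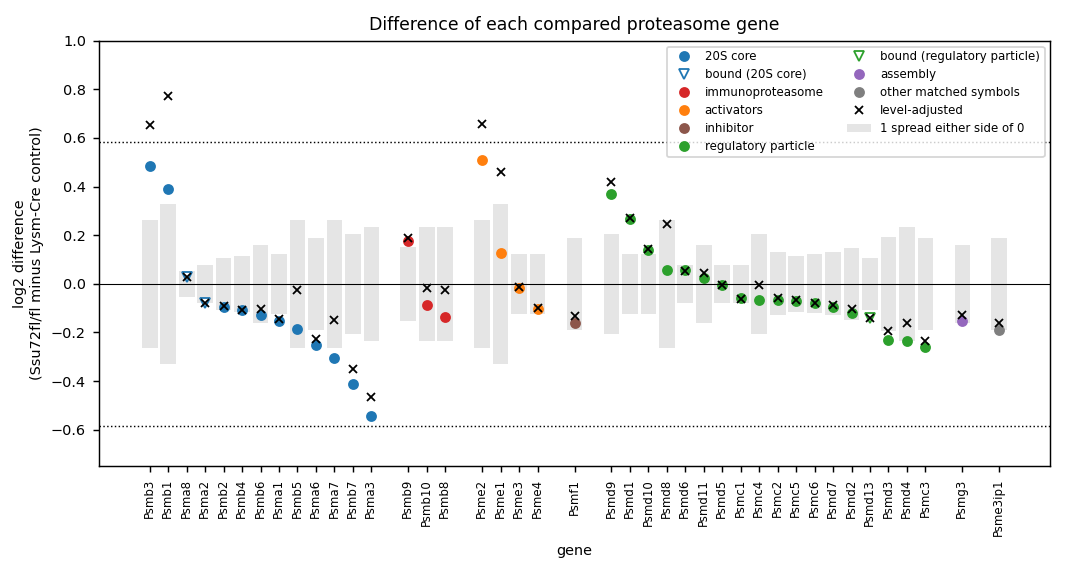
The log2 difference of Ssu72fl/fl minus Lysm-Cre control (vertical axis) for the 41 compared proteasome genes (horizontal axis, ordered within role groups), with grey bars for 1 spread either side of 0, crosses for the level-adjusted difference, open triangles for bounds and dotted lines at 1.5-fold. All deposited differences lie between the dotted lines, and 3 crosses, of Psmb3, Psmb1 and Psme2, lie above them.

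Of the 3 immunoproteasome genes, 2 were lower by less than 1 spread and 1 was higher by slightly more than 1 spread, with a median of -0.086. Psmb8, which takes the place of Psmb5, read 5.65 on the Ssu72fl/fl array and 5.79 on the Lysm-Cre array (-0.14, spread 0.23). Psmb10, which takes the place of Psmb7, read 5.45 on the Ssu72fl/fl array and 5.54 on the Lysm-Cre array (-0.086, spread 0.23). Psmb9, which takes the place of Psmb6, was the higher one at 5.07 on the Ssu72fl/fl array and 4.89 on the Lysm-Cre array, a difference of 0.17 with a spread of 0.15. After level adjustment Psmb8 was at -0.024, Psmb10 at -0.016 and Psmb9 at 0.19.

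Within each pair of an inducible subunit and the constitutive one it replaces, the inducible gene had the higher difference on the deposited scale. The gap between the differences was 0.30 for Psmb9 and Psmb6 and 0.33 for Psmb10 and Psmb7. These compare with spreads of 0.22 and 0.31 for a gap between 2 genes of their levels. For Psmb8 and Psmb5 the gap was 0.050 with a spread of 0.35, and its sign turned with quantile normalization (-0.016). The level-adjusted gaps were 0.29, 0.34 and 0.00066.

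**Figure D4:**
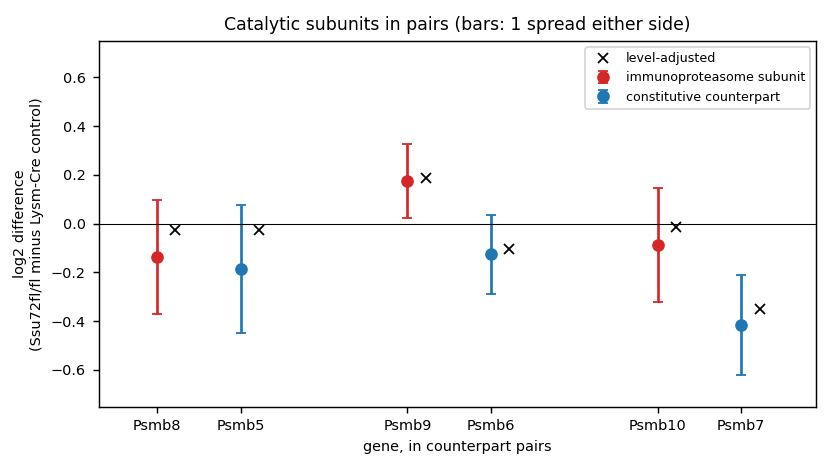
The log2 difference of Ssu72fl/fl minus Lysm-Cre control (vertical axis) for each immunoproteasome subunit gene (red) beside its constitutive counterpart (blue) on the horizontal axis, with bars of 1 spread either side and crosses for the level-adjusted difference. Psmb9 and Psmb10 lie above Psmb6 and Psmb7, and Psmb8 and Psmb5 lie close together.

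Among the activators, both interferon-inducible genes were higher and both others were not. Psme2, which encodes the beta subunit of the activator, read 6.15 on the Ssu72fl/fl array and 5.64 on the Lysm-Cre array. The difference of 0.51 (1.42-fold) was the highest of all proteasome genes, above a spread of 0.26, and exceeded that of 98.0% of the genes in its bin. A second feature, which carries Psme2 with 2 other symbols and was not used for the gene, read 6.11 on the Ssu72fl/fl array and 6.26 on the Lysm-Cre array, a difference of -0.14. The features therefore disagreed in direction, and RefSeq also lists a further coding copy, Psme2b. Psme1, the alpha subunit of the same activator, read 6.65 on the Ssu72fl/fl array and 6.52 on the Lysm-Cre array (0.13, spread 0.33), and its level-adjusted difference was 0.46. Psme3, the nuclear activator, read 4.81 on the Ssu72fl/fl array and 4.83 on the Lysm-Cre array (-0.016, spread 0.12). Psme4, a nuclear activator needed in spermatogenesis, read 4.77 on the Ssu72fl/fl array and 4.88 on the Lysm-Cre array (-0.10, spread 0.12). The inhibitor gene Psmf1 was at 5.11 on the Ssu72fl/fl array and 5.27 on the Lysm-Cre array (-0.16, spread 0.19).

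Lymphocytes carry much immunoproteasome, and some of their markers were higher on the Ssu72fl/fl array as well. Of 6 T cell markers, 4 were compared and 3 were higher. The adaptor gene Lat read 5.56 on the Ssu72fl/fl array and 4.87 on the Lysm-Cre array, and Cd3d read 4.89 on the Ssu72fl/fl array and, under the floor, 4.63 on the Lysm-Cre array. The defining markers Cd3e and Cd3g were under the floor on both arrays. The mean level of the 6 was 4.88 on the Ssu72fl/fl array and 4.71 on the Lysm-Cre array, with values from 4.58 to 5.56 and from 4.61 to 4.92. Of the 4 measured B cell markers the mean was 5.35 on the Ssu72fl/fl array and 5.46 on the Lysm-Cre array, with Cd79a 0.17 higher, Ighm 0.58 lower (a difference of -0.58) and Ms4a1 under the floor on both. All 4 compared dendritic cell markers were lower (median -0.21), against 51.9% of all compared genes. When level-adjusted 3 of 4 were lower (median -0.032), against 46.1% of all compared genes. Of the 4 markers only Ccl22 exceeded its spread (-0.51, spread 0.20). The bright marker Cd209a read 8.65 on the Ssu72fl/fl array and 8.97 on the Lysm-Cre array (-0.31, level-adjusted 0.15). The part of other cells in the values of Psme2 and Psmb9 was not tested.

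The promoters of 4 members are shown for the base composition and motifs of the genes at the ends of the range, Psme2 and Psmb3 at the higher end and Psma3 at the lower end, and of Psmb9, the inducible subunit that was higher. The letters are the 250 bases before the gene start in RefSeq (GRCm38.p6), 5′ to 3′ on the gene's strand. Capitals mark matches on either strand to CCAAT (the CCAAT box), TGACNNNGC (the antioxidant response element, bound by Nrf proteins that control proteasome genes), GAAANNGAA (the core of the interferon-stimulated response element) or TTCNNNGAA (the gamma-activated site).
Psme2 (chr14:55591102-55591351, - strand): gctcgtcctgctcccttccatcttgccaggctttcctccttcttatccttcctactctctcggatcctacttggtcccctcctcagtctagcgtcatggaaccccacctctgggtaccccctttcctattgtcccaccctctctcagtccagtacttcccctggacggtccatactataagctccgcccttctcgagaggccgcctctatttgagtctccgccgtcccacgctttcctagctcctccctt
Psmb3 (chr11:97703184-97703433, + strand): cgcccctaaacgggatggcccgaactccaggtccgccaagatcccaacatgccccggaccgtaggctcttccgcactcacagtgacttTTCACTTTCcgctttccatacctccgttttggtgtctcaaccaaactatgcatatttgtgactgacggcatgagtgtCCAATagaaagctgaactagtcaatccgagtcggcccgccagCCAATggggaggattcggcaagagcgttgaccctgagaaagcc
Psma3 (chr12:70974373-70974622, + strand): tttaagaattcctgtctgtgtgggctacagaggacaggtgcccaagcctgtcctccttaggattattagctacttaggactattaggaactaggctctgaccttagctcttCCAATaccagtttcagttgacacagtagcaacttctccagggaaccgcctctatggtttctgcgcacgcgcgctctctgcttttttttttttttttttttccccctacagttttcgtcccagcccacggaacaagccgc
Psmb9 (chr17:34187331-34187580, - strand): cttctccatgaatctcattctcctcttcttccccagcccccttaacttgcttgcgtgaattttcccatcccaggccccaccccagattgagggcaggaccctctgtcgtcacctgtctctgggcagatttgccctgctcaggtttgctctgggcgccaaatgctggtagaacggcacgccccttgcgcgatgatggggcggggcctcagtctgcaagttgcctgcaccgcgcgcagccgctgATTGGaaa
In these windows Psmb3 had 2 CCAAT boxes and 1 match to the interferon-stimulated element, Psma3 and Psmb9 had 1 CCAAT box each, and Psme2 had no match to the 4 motifs.

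Across the family, the CCAAT box and the antioxidant response element were about as frequent as in promoters at large. The interferon-stimulated core and the gamma-activated site stood in too few members for such a comparison. A promoter was found for 41 of the 49 genes and for 27025 genes in all. The CCAAT box stood in 39.0% of member promoters and 37.5% of all promoters, and the antioxidant response element in 12.2% and 11.5%. The core of the interferon-stimulated element stood in 3 members, Psmb3, Psmd4 and Psmd9 (7.32%, against 8.18% of all promoters), of which Psmb3 and Psmd9 were among the higher genes and Psmd4 was lower. The gamma-activated site stood in Psmb8 and Psmg1 (4.88%, against 8.13% of all). Compared members with a CCAAT box had a median difference of -0.079 (10 of 13 lower) and those without one -0.080 (14 of 21 lower). Each motif was counted on its own, also where matches to different motifs overlap, and a match is a description of these letters, not evidence of binding.

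Genes of the regulatory particle were mostly slightly lower, with the ATPases the most even group. The 6 ATPases, Psmc1 to Psmc6, form the ring that unfolds substrates. All 6 were lower, against 51.9% of all compared genes, with a median of -0.068 and a range of -0.26 to -0.060. Only Psmc3 exceeded its spread, at 5.01 on the Ssu72fl/fl array and 5.27 on the Lysm-Cre array (-0.26, spread 0.19). Psmc4 read 5.40 on the Ssu72fl/fl array and 5.47 on the Lysm-Cre array (-0.065), and its difference was -0.0027 when level-adjusted and 0 after quantile normalization. Psmc1 (-0.060), Psmc2 (-0.066), Psmc5 (-0.069) and Psmc6 (-0.080) were each within 1 spread. Of these, Psmc1, Psmc5 and Psmc6 lay close above the floor. They read 4.67, 4.71 and 4.67 on the Ssu72fl/fl array and 4.73, 4.78 and 4.75 on the Lysm-Cre array. The part of this low signal in the evenness of the group was not tested.

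The 14 Psmd genes, which encode the scaffold, lid, ubiquitin receptor and base chaperones, had no common direction, with 6 of the 12 compared lower, 6 higher and a median of 0.0088. Of the scaffold proteins at the base, Psmd1 read 4.93 on the Ssu72fl/fl array and 4.66 on the Lysm-Cre array, a difference of 0.27 with a spread of 0.12. The Lysm-Cre value lay close above the floor. A feature shared with Armc9, not used for the gene, read 4.78 on the Ssu72fl/fl array and 4.79 on the Lysm-Cre array. Psmd2, the other scaffold protein, read 4.98 on the Ssu72fl/fl array and 5.10 on the Lysm-Cre array (-0.12, spread 0.15).

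Psmd4, a receptor for ubiquitin chains, read 5.40 on the Ssu72fl/fl array and 5.63 on the Lysm-Cre array (-0.23, spread 0.23). Of the lid genes, Psmd3 was the lowest at 5.12 on the Ssu72fl/fl array and 5.35 on the Lysm-Cre array (-0.23, spread 0.19). Psmd13 had a bound of -0.14, since its Ssu72fl/fl value of 4.61 lay under the floor, against 4.79 on the Lysm-Cre array. Psmd7 (-0.097), Psmd11 (0.022) and Psmd6 (0.055) were within their spreads. The brightest feature of the regulatory particle, that of Psmd8, read 6.12 on the Ssu72fl/fl array and 6.06 on the Lysm-Cre array (0.055, spread 0.26, level-adjusted 0.25). Psmd14, which encodes the deubiquitinase of the lid, and Psmd12 were under the floor on both arrays.

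The 3 chaperones that assemble the base carry Psmd symbols and were level or higher. Psmd9 read 5.53 on the Ssu72fl/fl array and 5.16 on the Lysm-Cre array, a difference of 0.37 (1.29-fold, spread 0.20) that exceeded that of 96.6% of the genes in its bin. Psmd10, also known as gankyrin, read 4.89 on the Ssu72fl/fl array and 4.75 on the Lysm-Cre array (0.14, spread 0.12). Psmd5 differed by -0.0047. Of the 4 chaperones of the core, Psmg1, Psmg2 and Psmg4 were under the floor on both arrays. Psmg3 read 5.05 on the Ssu72fl/fl array and 5.20 on the Lysm-Cre array (-0.15, spread 0.16). Of the 2 genes that only share the symbol pattern, Psme3ip1 read 5.09 on the Ssu72fl/fl array and 5.28 on the Lysm-Cre array (-0.19, spread 0.19), and Psmc3ip was under the floor on both. Psma5, Psmc2 and Psmg2 have a second feature each, and all 3 of these second features were under the floor on both arrays.

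Of the genes outside the symbol family whose products bind or help assemble the proteasome, 9 were measured. All 7 compared were lower, against 51.9% of all compared genes, with a median of -0.30. On the level-adjusted scale 5 of 7 were lower, against 46.1% of all compared genes, with a median of -0.12. Zfand5, a proteasome-binding zinc finger protein, read 5.92 on the Ssu72fl/fl array and 6.56 on the Lysm-Cre array (-0.65, spread 0.33). Txnl1, a thioredoxin-like protein of the regulatory particle, read 4.65 on the Ssu72fl/fl array and 5.05 on the Lysm-Cre array (-0.39, spread 0.13). Pomp, the maturation factor of the core, read 4.77 on the Ssu72fl/fl array and 5.13 on the Lysm-Cre array (-0.36, spread 0.14). The level-adjusted differences were -0.42 for Zfand5, -0.39 for Txnl1 and -0.35 for Pomp. At the other end Zfand2a (-0.072) and Akirin2 (-0.13), which carries proteasomes into the nucleus, were within their spreads.

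Ubiquitin-handling genes were lower in 8 of 10 compared, against 51.9% of all compared genes, with a median of -0.083. When level-adjusted the median was -0.073, again with 8 of 10 lower, against 46.1% of all compared genes. Vcp, the segregase that extracts ubiquitin-tagged proteins, read 5.11 on the Ssu72fl/fl array and 5.56 on the Lysm-Cre array (-0.45, spread 0.20). The shuttle gene Ubqln1 was highest at 5.29 on the Ssu72fl/fl array and 5.06 on the Lysm-Cre array (0.23, spread 0.19). The regulators of proteasome genes had a median of -0.032, with 6 of 9 lower, and 0.013 when level-adjusted, with 4 of 9 lower. Nfe2l1, which drives proteasome genes when the proteasome is inhibited, read 5.11 on the Ssu72fl/fl array and 5.09 on the Lysm-Cre array (0.028, spread 0.16). Its relative Nfe2l2 read 5.69 on the Ssu72fl/fl array and 6.04 on the Lysm-Cre array (-0.35, spread 0.26). When level-adjusted, Nfe2l2 was at -0.21, which is less than that spread.

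Of the class I peptide genes, 7 of 9 compared were lower, against 51.9% of all compared genes, with a median of -0.18. That median was 0.0010 when level-adjusted, with 4 of 9 lower, against 46.1% of all compared genes. Tap1, a peptide transporter subunit whose start lies 226 bases from that of Psmb9 on the opposite strand of chromosome 17 (GRCm38.p6), read 5.500 on the Ssu72fl/fl array and 5.280 on the Lysm-Cre array (0.22, spread 0.20). Both genes of this shared promoter region were thus higher by a similar amount. Tap1 also lies next to Psmb8, which was lower (-0.14, spread 0.23). Tap2, on the other side of Psmb8, was under the floor on both arrays. The interferon signalling and regulator genes were lower in 9 of 11, with a median of -0.11 (level-adjusted -0.0093, 8 of 11 lower). The kinase gene Jak1 was lowest, at 5.88 on the Ssu72fl/fl array and 6.47 on the Lysm-Cre array (-0.59, spread 0.26), and Irf1 read 5.34 on the Ssu72fl/fl array and 5.58 on the Lysm-Cre array (-0.25, spread 0.20). Level adjustment brought Jak1 to -0.38 and Irf1 to -0.18, which for Irf1 is less than its spread. Nlrc5, an activator of class I and immunoproteasome genes, was at 4.71 on the Ssu72fl/fl array and 4.65 on the Lysm-Cre array (0.061, spread 0.077).

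**Figure D5:**
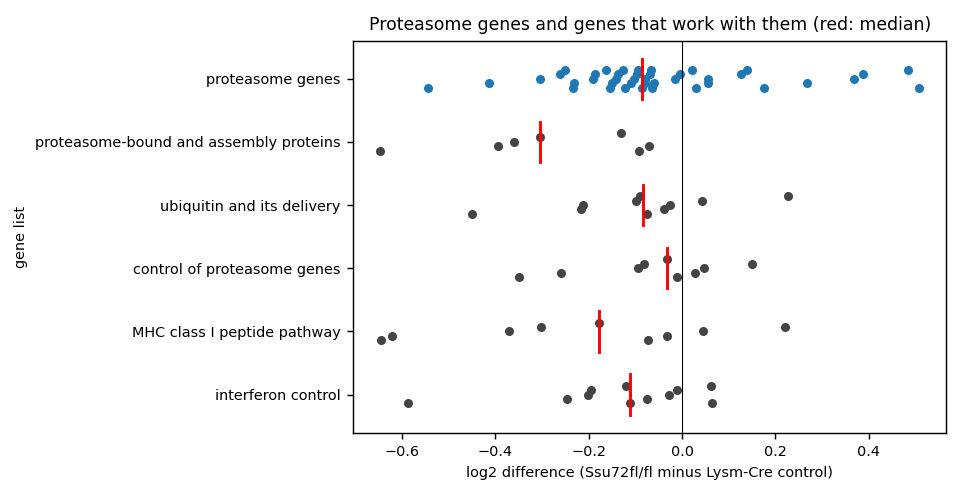
The log2 difference of Ssu72fl/fl minus Lysm-Cre control (horizontal axis) of each compared gene, for the proteasome genes (blue) and the 5 further lists (dark grey), with the median of each list in red. All medians lie below 0, from -0.032 for the regulators of proteasome genes to -0.30 for the proteasome-bound and assembly proteins, and the proteasome genes reach furthest to the right.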

How the data were processed

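The authors deposited log2 values, 1 for each array feature, from 4.23 to 13.5, and that range is the basis for taking the scale as log2. MAS5 is named in the submitters' processing notes with no role. How background, normalization and any offset were treated is not given, and a compressed scale would make every difference too small.

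Of 33793 features, 23521 carried 1 gene symbol, and 23328 of these took their symbol from the RefSeq gene table (GRCm38.p6) by Entrez identifier. Differences, floor, spread and counts were computed with Python 3.11.15, numpy 2.4.6 and pandas 2.3.3. The level curve was a lowess (span 0.3, statsmodels 0.14.6) on medians of level bins 0.1 wide with at least 10 features. The procedure was tested on simulated arrays. Genotype labels set the groups, and no test was possible with 1 array each. Every member may be named. From each other list up to 3 genes at each end were named. Tap2, single markers and neighbouring genes were added after their values were seen. The members and lists were chosen with earlier results of these data known. Alternatives were median centring, quantile normalization, the level curve, floors at the 25th and 75th percentiles or none, the mean of a gene's features, other folds, and members left out.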

Additional observations from a re-analysis of the deposited data

How the results depend on the processing

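The median difference of the members stayed below 0 as deposited and under the alternatives, between -0.13 (floor at the 75th percentile) and -0.068 (level trend removed). Counts depended on the settings as follows. At least 1.5-fold higher were 3 members with quantile normalization and 3 with the level trend removed, against 0 as deposited. At 1.2-fold 3 were lower and 5 higher. With the floor at the 75th percentile 24 members were compared and 16 were lower, a change in the number compared. At that floor 57.5% of all 6544 compared genes were lower, with a median of -0.030. The median of the activators was 0.22 with quantile normalization, 0.23 with the level trend removed and 0.32 with the floor at the 75th percentile, against 0.055 as deposited. These scalings raise bright genes on the Ssu72fl/fl array by construction, and over all genes 43 were then lower and 98 higher at 1.5-fold with quantile normalization and 39 and 95 with the level trend removed, against 178 and 41 as deposited. Single members that moved by more than their spread were Psme1 (0.46 in both of these scalings), Psmb1 (0.77 with the level trend removed) and Psma8 (0.097 with the floor at the 25th percentile or none). Psmc4 was at 0 under quantile normalization, and no other compared member changed sign in the scalings, floors and feature means. Leaving out Psme3ip1, chosen after seeing the data, gave 28 lower and 12 higher. No paired analysis was possible because each genotype has 1 array and the labels carry no replicate numbers. Differences of genes near the floor are limited by their signal over background.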

Other observations

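The genes that lie next to Psme2 on chromosome 14 were also higher by smaller amounts. Emc9 read 4.84 on the Ssu72fl/fl array and 4.74 on the Lysm-Cre array (0.10, within the spread of 0.12 at its level). Rnf31, a subunit of the linear ubiquitin ligase, read 4.91 on the Ssu72fl/fl array and 4.74 on the Lysm-Cre array (0.17, spread 0.12). Next to Psmb1 on chromosome 17, Fam120b read 5.02 on the Ssu72fl/fl array and 4.72 on the Lysm-Cre array (0.30), and Tbp was under the floor on both. Next to Psmb3 on chromosome 11, Pip4k2b differed by -0.013 and Pcgf2 was under the floor on both. These genes were named after their values were seen. At their levels, between the floor and 5, 46.5% of all compared genes were lower. Neighbours of lower members went both ways. Lsm14b, next to Psma7 (-0.30), differed by 0.42, and Slc39a13, next to Psmc3 (-0.26), by -0.34. Whether members and their neighbours change together was not tested. The features that carry Psma4 together with AY074887 read 5.18 on the Ssu72fl/fl array and 5.06 on the Lysm-Cre array (0.11) in one case, and 4.67 on the Ssu72fl/fl array and 4.75 on the Lysm-Cre array (-0.073) in the other.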
